A study of Mus musculus with 24 samples.

Results

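Loss of the retinoblastoma gene Rb1 was examined in the villi of the mouse small intestine on 6 of the 24 microarrays of the series, the 3 titled as Rb villi and the 3 titled as wild-type (WT) villi. All mice were 2 months old, of strain C57BL/6;FVB and on a normal diet, and every group, WT included, was harvested 7 days after an intraperitoneal injection of beta-napthoflavone (so spelled in the labels), an agent that activates the aryl hydrocarbon receptor. The Rb group is labelled Rb-/-. The labels name neither the allele, nor the promoter or recombinase that deletes it, nor the share of cells deleted, nor how villi were isolated, nor is it said whether each array stands for its own animal, so p-values measure the spread between these arrays. The further groups used for comparison are Rb and WT crypts, villi labelled E2f1-/-;E2f2-/-;E2f3-/- (TKO) and villi that carry these and Rb-/- (QKO), with 3 arrays each. Each of 18193 genes was read through 1 probe set, the brightest on average over the 24 arrays.

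The Rb protein binds E2f transcription factors and holds back genes needed to copy DNA. Cyclin-dependent kinases (Cdks) phosphorylate Rb and release E2f, which lets a cell enter S phase. In the intestine cells divide in the crypts, leave the cell cycle as they move onto the villus, and there absorb nutrients or secrete mucus and hormones. The comparison asks which genes differ in the villus compartment when Rb is missing.

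Values are the deposited log2 values, on which a difference of 1 is a 2-fold change, and they are given in the order of replicates 1, 2 and 3. Differences are Rb minus WT with the standard error of the limma fit, and a gene is called where its Benjamini-Hochberg adjusted p over all 18193 genes was under 0.05. By this rule 1563 genes were higher (8.59% of all genes) and 1127 lower (6.19%), together 14.8%, and the median difference of all genes was -0.08. The 3 Rb and 3 WT values did not overlap in 7620 genes (41.9%). With arrays centred on their medians the same fit called 1518 higher and 1606 lower, so the share of rises among calls went from 58.1% to 48.6%.

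Rb1 checked the labels. On its brighter probe set Rb1 was at 10.70, 10.93 and 10.74 in WT and at 8.84, 9.36 and 9.19 in Rb villi, a difference of -1.66 ± 0.41 (3.16-fold lower, adjusted p = 0.0078). All Rb values lay below all WT values, but they stayed well above the bottom of the scale. The call was lost in 3 alternatives, the mean of the probe sets, the sex covariate and leaving out both Rb villi 1 and 3. A second Rb1 probe set, dim on every array, read 3.51, 3.22 and 3.42 against 3.63, 4.04 and 3.83 and so went the other way (0.45 ± 0.12, adjusted p = 0.016 over all 34945 probe sets). Which part of the transcript either probe set reads relative to the deletion was not examined. In crypts, 1 array of each group had the Rb1 level of the other group, 8.46 on the array labelled WT crypts 3 (beside 10.31 and 10.59) and 10.25 on the array labelled Rb crypts 2 (beside 8.23 and 8.87).

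The arrays within a villus group correlated at 0.993 to 0.995 over genes, and arrays of different groups at 0.975 to 0.983. The Y-linked gene Eif2s3y was at 9.24 on Rb villi 1 and 9.24 on Rb villi 3 but at 3.15 on Rb villi 2 and 3.02 to 3.46 on the WT villus arrays. Sex therefore differs between the groups, and Rb villi 2 is the Rb array that matches the WT arrays in this respect. With sex as a covariate 1126 genes were higher and 578 lower. With Rb villi 2 as the sole Rb array, where it is assumed to vary like the arrays of other groups, 721 were higher and 171 lower. Of 179 called genes described or followed here, 131 kept their call with the sex covariate and 81 with Rb villi 2 as the sole Rb array. A call lost in 2 or more alternative settings is given with the number of settings in which its adjusted p was 0.05 or more. Each array whose removal alone lost it is given in brackets. Most calls lost in only 1 setting are not marked, among them those of Gip, Cck, Ace and Bcl2l11. For the genes named here that setting was Rb villi 2 as the sole Rb array, or the mean of probe sets for Rbl1. Because tissue was measured in bulk, more cells of a type and more RNA per cell cannot be told apart.

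The genes with the largest rises were genes of DNA replication, of chromosome condensation and of the E2f family. Rrm2, a subunit of the enzyme that makes deoxynucleotides, was at 7.56, 7.47 and 7.15 in WT and at 11.46, 10.86 and 11.33 in Rb villi, a difference of 3.82 ± 0.28 (14.1-fold higher, adjusted p = 1.0e-08). Tcf19, a gene expressed at the G1/S transition, was at 7.06, 6.94 and 7.13 in WT and at 10.94, 10.66 and 10.65 in Rb villi, a difference of 3.71 ± 0.30 (13.1-fold higher, adjusted p = 2.7e-08). Zfp367, a zinc finger factor, was at 5.99, 6.36 and 5.86 in WT and at 10.15, 9.47 and 9.68 in Rb villi, a difference of 3.70 ± 0.37 (13-fold higher, adjusted p = 3.8e-07). On all 3 genes the Rb arrays stood more than 3 log2 units above the highest WT array. Ncapg2 of the condensin II complex, the primase subunit Prim1, the replication fork protein Pclaf and the DNA polymerase subunit Pola1 rose by 3.64, 3.32, 3.29 and 3.13. The next were E2f7, E2f8, Brca1, the chromatin ATPase Atad2 and Fbxo5, an inhibitor of the anaphase-promoting complex, at 3.11, 3.10, 3.06, 2.97 and 2.95. None of these 12 genes lost its call when any 1 villus array was left out, with the sex covariate, or with Rb villi 2 as the sole Rb array.

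**Figure D1:**
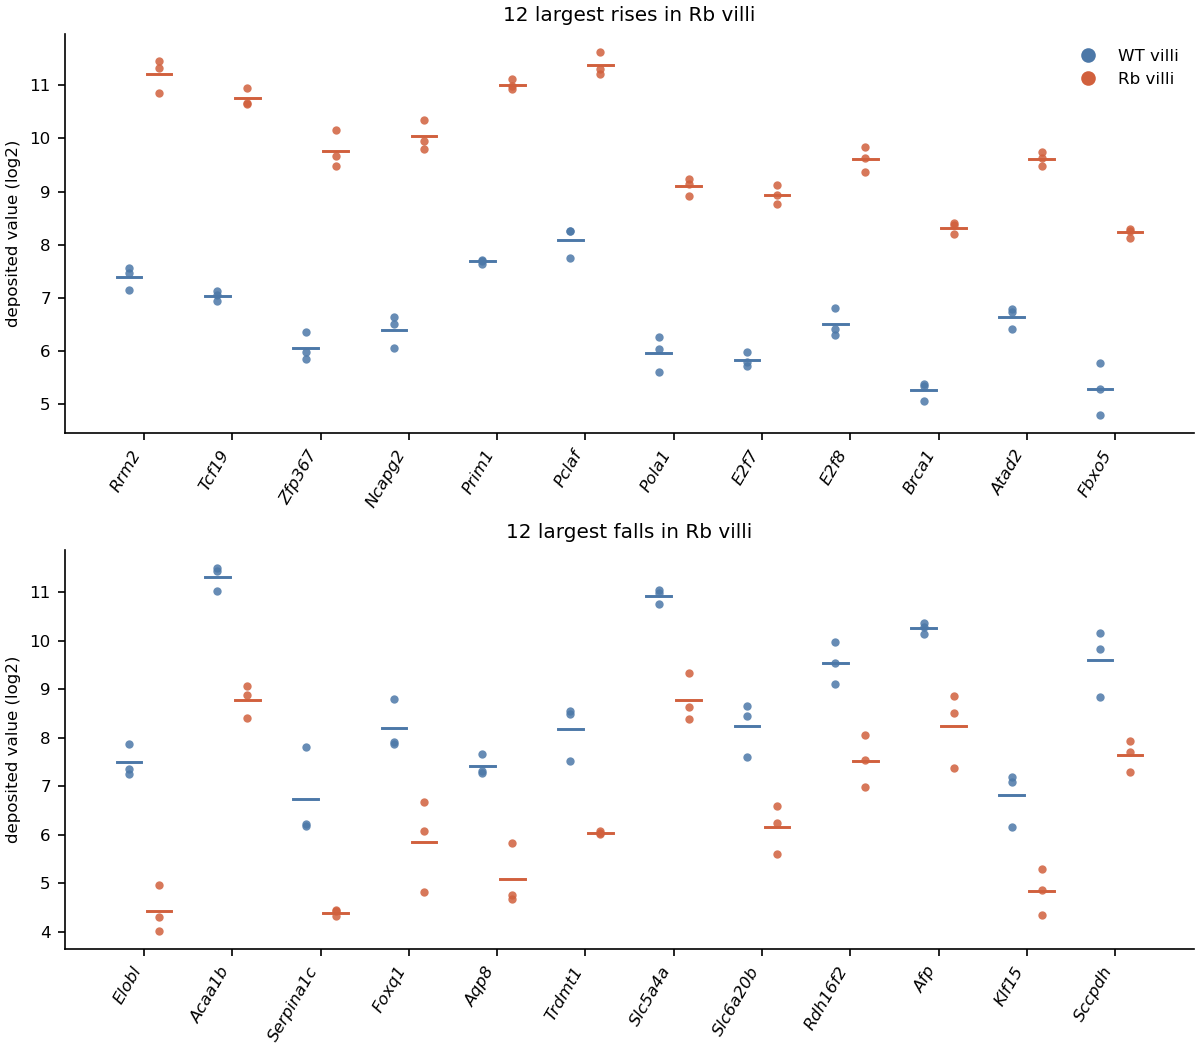
Deposited log2 values (y axis) of the 12 genes with the largest rises (top) and the 12 with the largest falls (bottom) in Rb villi. Each point is 1 array (3 WT, 3 Rb) and the bar is the mean of the group. Only genes whose groups do not overlap were eligible.

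The promoters of 4 of these genes hold an E2f motif in the 250 bases before the start, and they are shown because the largest rises are in genes that E2f factors are known to act on. Motifs searched on both strands were TTTCCCGC, TTTCGCGC, TTTGGCGC and TTTGGCGG for E2f, TTTGAA for the cell cycle homology region (CHR) found in genes of mitosis, and CCAAT for the CCAAT box. Sequences are RefSeq's, build GRCm38.p6, 5′ to 3′ on the gene's strand, and capitals mark every match to the motif named, on either strand. The Zfp367 stretch lies at chr13:64153200-64153278 (minus strand), Ncapg2 at chr12:116405186-116405254 (plus), Pola1 at chrX:93632226-93632353 (minus) and E2f7 at chr10:110745189-110745308 (plus). These 4 carry E2f matches:
Zfp367: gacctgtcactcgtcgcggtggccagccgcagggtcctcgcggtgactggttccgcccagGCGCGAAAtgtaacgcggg
Ncapg2: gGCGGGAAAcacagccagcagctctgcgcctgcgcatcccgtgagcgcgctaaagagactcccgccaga
Pola1: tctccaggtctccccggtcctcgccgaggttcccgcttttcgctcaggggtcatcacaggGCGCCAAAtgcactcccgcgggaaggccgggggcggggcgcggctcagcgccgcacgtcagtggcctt
E2f7: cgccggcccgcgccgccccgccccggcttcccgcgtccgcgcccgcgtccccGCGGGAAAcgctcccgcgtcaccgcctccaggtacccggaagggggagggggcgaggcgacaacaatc
The next 2 carry CHR matches and belong to Mki67 at chr7:135716412-135716537 (minus) and Cdk1 at chr10:69352913-69352987 (minus). Among mitosis genes not shown above that hold the motif in the 250 bases before the start, they have the largest called rises:
Mki67: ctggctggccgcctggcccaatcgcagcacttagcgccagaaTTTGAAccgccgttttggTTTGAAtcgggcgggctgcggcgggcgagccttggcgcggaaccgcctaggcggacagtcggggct
Cdk1: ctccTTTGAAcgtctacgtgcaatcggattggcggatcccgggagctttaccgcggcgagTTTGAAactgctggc

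Windows of 300 bases, 250 before to 50 after the start, were found for 14452 of the genes. An E2f match was in 12% of the 1304 genes called higher, 3.18% of the 942 called lower and 4.04% of all. Among 66 genes of DNA replication with a window 24 held one (36.4%), and among 60 genes of mitosis 9 (15.0%). The CHR motif was in 35 of those 60 mitosis genes (58.3%) and 14 of the 66 replication genes (21.2%), against 15.7% of all, but also in 18 of 58 detoxification genes (31.0%) and 8 of 31 enteroendocrine genes (25.8%). In the 250 bases before the start alone, E2f matches were in 15 replication genes (22.7%, against 3.36% of all) and CHR matches in 20 mitosis genes (33.3%, against 14.1% of all), with 31.0% for detoxification. Over the whole window the CCAAT box was in 70.0% of mitosis and 60.6% of replication genes, against 42.0% of all. Of the 31 enteroendocrine and 17 fatty acid oxidation genes with a window, 0 held an E2f match. The windows of Rrm2, Tcf19, Prim1, E2f8, Brca1 and Fbxo5 held none of these E2f letters. A match is a description of letters and not a bound site.

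Within the E2f and pocket protein genes, 9 of 13 were called higher and 1, Rb1 itself, lower (median 0.78). E2f2, one of the activating E2fs, was at 8.10, 7.32 and 7.24 in WT and at 8.93, 8.88 and 8.88 in Rb villi, a difference of 1.35 ± 0.19 (2.54-fold higher, adjusted p = 2.5e-05). E2f1, another activator, rose less (0.60 ± 0.19, adjusted p = 0.037; 6.62, 6.71 and 6.61 in WT, 7.50, 7.07 and 7.18 in Rb), and that call was lost in 8 alternatives, among them the sex covariate and leaving out any of WT villi 1 to 3, Rb villi 1 or Rb villi 3. E2f3, the remaining activator, was at 8.23, 7.80 and 7.79 against 7.84, 8.28 and 8.31 and its groups overlapped (0.20 ± 0.21, adjusted p = 0.58). The repressors E2f7 and E2f8 rose most. E2f7 was at 5.99, 5.71 and 5.80 in WT and at 9.12, 8.76 and 8.95 in Rb villi, a difference of 3.11 ± 0.30 (8.63-fold higher, adjusted p = 2.3e-07). E2f8 was at 6.81, 6.30 and 6.41 in WT and at 9.63, 9.83 and 9.37 in Rb villi, a difference of 3.10 ± 0.30 (8.58-fold higher, adjusted p = 2.0e-07). Both are thus several log2 units higher on all Rb arrays.

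E2f5 (1.09 ± 0.17, adjusted p = 1.3e-04) and E2f6 (0.78 ± 0.13, adjusted p = 1.8e-04), which also act as repressors, rose with no overlap. E2f4, the E2f that prevails in resting cells, read 6.90, 6.89 and 6.85 against 6.74, 7.03 and 7.00 (0.04 ± 0.13, adjusted p = 0.87), and the sign of this uncalled difference turned after quantile normalization. The dimer partners Tfdp1 (1.44 ± 0.14, adjusted p = 2.4e-07) and Tfdp2 (0.73 ± 0.17, adjusted p = 0.0044) were higher. So was Rbl1, the gene of the related pocket protein p107 (1.13 ± 0.19, adjusted p = 2.6e-04). Rbl2, the gene of p130, did not pass the test (-0.36 ± 0.20, adjusted p = 0.26).

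Among cyclins, Cdks and Cdk inhibitors of G1, 13 of 19 were higher and 0 lower (median 0.89). Ccne1 and Ccne2, the E cyclins that drive S phase entry, rose by 2.64 ± 0.32 (adjusted p = 5.8e-06) and 2.71 ± 0.46 (adjusted p = 2.4e-04). Their partner Cdk2 was at 7.67, 7.61 and 7.63 in WT and at 9.69, 9.65 and 9.52 in Rb villi, a difference of 1.98 ± 0.19 (3.95-fold higher, adjusted p = 1.8e-07). Cyclin A2 (Ccna2) rose by 1.82 ± 0.24 (adjusted p = 1.1e-05) and Skp2, a subunit of the ubiquitin ligase that degrades p27, by 1.77 ± 0.19 (adjusted p = 1.1e-06). Genes that inhibit Cdks rose alongside. Cdkn2c, the gene of p18, was at 7.61, 7.94 and 7.79 in WT and at 10.65, 10.35 and 10.34 in Rb villi, a difference of 2.67 ± 0.27 (6.35-fold higher, adjusted p = 4.0e-07). Cdkn2d (p19), Cdkn1b (p27) and Cdkn2a, whose WT level was near the bottom of the scale, rose by 1.10, 0.89 and 0.59. Of the D cyclins and their kinases, which act upstream of Rb, Ccnd3 (0.83 ± 0.18, adjusted p = 0.0029) and Cdk4 (0.69 ± 0.20, adjusted p = 0.023) rose, while Ccnd1 read 7.48, 8.66 and 9.35 against 8.30, 7.85 and 7.88 and Cdk6 7.16, 7.10 and 7.50 against 7.57, 7.51 and 7.19, with overlap in both. Calls were lost for Cdk4 in 7 alternatives (WT villi 1, 2 and 3, Rb villi 2 and 3), Ccnd3 in 2, Cdkn2d in 2 and Cdkn2a in 2 (Rb villi 2).

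Most DNA replication genes were higher. Over the lists of origin licensing and firing, polymerases and fork proteins, deoxynucleotide synthesis and replication-coupled chromatin, 69 of 78 genes were higher and 0 lower, with a median of 1.71 beside -0.08 for all genes. In the Mcm helicase, which unwinds origins, Mcm6 was at 9.29, 8.46 and 8.82 in WT and at 11.75, 11.73 and 11.93 in Rb villi, a difference of 2.95 ± 0.24 (7.7-fold higher, adjusted p = 2.8e-08). Mcm4, Mcm5 and Mcm7 rose by 2.61, 2.56 and 2.23, each with a standard error between 0.14 and 0.17. All 25 polymerase and fork genes were higher, from 0.81 to 3.32, among them Pole2 of the leading-strand polymerase at 2.35 ± 0.17 and Tipin of the fork protection complex at 2.48 ± 0.14. The small and the large subunit of ribonucleotide reductase both rose, Rrm1 by 2.33 ± 0.15, and so did thymidine kinase Tk1 (2.36 ± 0.26) and the dUTPase gene Dut (2.01 ± 0.18). Of the genes that pass chromatin on through S phase, Dnmt1, which copies DNA methylation, rose by 2.44 ± 0.19, the remodeller Hells by 2.40 ± 0.19, the histone acetyltransferase Hat1 by 2.30 ± 0.20 and the histone chaperone Nasp by 1.56 ± 0.13.

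Of the 9 members that did not pass, 3 named here belong to the origin recognition complex, which marks origins. Orc3 read 7.99, 8.05 and 8.26 on the WT and 7.87, 7.91 and 7.95 on the Rb arrays (-0.19 ± 0.13, adjusted p = 0.37), Orc4 differed by 0.30 ± 0.15 and Orc5 by 0.57 ± 0.20 (adjusted p = 0.22 and adjusted p = 0.061). Recql4, a helicase of origin firing, read 6.18, 6.12 and 5.58 against 6.03, 6.27 and 6.39, with overlap. The histone methyltransferase Suv39h2 differed by 0.10 ± 0.14 on the probe set used, and 1 of its other probe sets was called higher.

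Of 72 genes of mitosis 66 were higher and 1 lower, with a median of 1.75. Mki67, the proliferation antigen, was at 8.41, 8.30 and 8.05 in WT and at 11.31, 10.90 and 11.23 in Rb villi, a difference of 2.90 ± 0.29 (7.44-fold higher, adjusted p = 4.0e-07). Cdk1, the kinase of mitotic entry, was at 7.91, 7.74 and 7.63 in WT and at 10.23, 10.05 and 10.23 in Rb villi, a difference of 2.41 ± 0.20 (5.32-fold higher, adjusted p = 4.5e-08). All Rb values of both genes were above all WT values by more than 2 log2 units. Topoisomerase Top2a rose by 2.36 ± 0.27, survivin (Birc5) by 1.65 ± 0.20 and the ubiquitin-conjugating enzyme Ube2c of the anaphase-promoting complex by 2.08 ± 0.22. In the spindle checkpoint, Mad2l1 rose by 1.80 ± 0.17, the cohesin protector Sgo1 by 2.00 ± 0.17 and Incenp of the chromosomal passenger complex by 1.83 ± 0.18. All 14 centromere and kinetochore genes were higher, among them Cenpk (2.66 ± 0.26), Spc25 (2.65 ± 0.28), the motor Cenpe (2.23 ± 0.25) and Oip5 (1.89 ± 0.21). The same held for all 14 condensin and cohesin genes, with Smc2 at 2.20 ± 0.20, Ncapg at 2.39 ± 0.22 and the cohesin acetyltransferase Esco2 at 2.88 ± 0.26. Of 11 mitotic kinesins 9 rose, Kif20b by 2.33 ± 0.19 and Kif23 by 1.71 ± 0.17, while Kif14 and Kif15 differed by -0.14 ± 0.14 and -0.21 ± 0.16 at levels below the array median or near it.

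The regulators Foxm1, Mybl2 and Pttg1 were not called higher. Foxm1, a transcription factor of G2/M genes, read 7.21, 6.78 and 7.06 against 6.81, 6.83 and 6.95 with overlap (-0.15 ± 0.17, adjusted p = 0.6), and none of its 4 probe sets was called, although one differed by 0.68 ± 0.24 (adjusted p = 0.073 over all probe sets). Mybl2, the Myb factor of the same genes, was dim and differed by 0.47 ± 0.20 (adjusted p = 0.12). Pttg1, securin, was the 1 mitosis gene called lower: it was at 10.43, 10.64 and 10.64 in WT and at 10.01, 9.88 and 10.00 in Rb villi, a difference of -0.61 ± 0.16 (1.52-fold lower, adjusted p = 0.012). A second Pttg1 probe set fell by 0.98 ± 0.25 (adjusted p = 0.011 over all probe sets), and the remaining one did not pass. The call of the main probe set was lost for Pttg1 in 5 alternatives (WT villi 3, Rb villi 2).

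Genes of DNA damage checkpoints and repair had 15 of 21 higher and 0 lower (median 1.0). Brca1, a homologous recombination factor, rose by 3.06 ± 0.25, the checkpoint kinase Chek1 by 2.44 ± 0.22, the mismatch repair gene Msh6 by 2.39 ± 0.16 and Rad51ap1 by 2.20 ± 0.16. The upstream kinase Atr (0.53 ± 0.32, adjusted p = 0.31) and Fancd2 of the Fanconi pathway (0.45 ± 0.16, adjusted p = 0.068) did not pass. Genes of p53 and its targets, by contrast, had 0 of 21 higher and 1 lower (median 0.02). The one lower was Btg2, an antiproliferative p53 target, which was at 9.80, 9.97 and 9.92 in WT and at 8.85, 8.79 and 8.97 in Rb villi, a difference of -1.03 ± 0.21 (2.04-fold lower, adjusted p = 0.0015). Mdm2, the ligase that p53 induces, differed by -0.14 ± 0.18 (adjusted p = 0.66). The p21 gene Cdkn1a read 11.29, 11.17 and 11.64 against 12.30, 11.99 and 12.20 without overlap and missed the threshold (0.79 ± 0.29, adjusted p = 0.072), whereas its dimmer probe set was called at 1.01 ± 0.26 (adjusted p = 0.010 over all probe sets). Of 19 apoptosis genes 3 were higher and 1 lower (median -0.06). Bcl2l11, the gene of the death factor Bim, was at 7.59, 7.31 and 7.31 in WT and at 9.43, 8.42 and 8.66 in Rb villi, a difference of 1.43 ± 0.27 (2.7-fold higher, adjusted p = 8.0e-04), and all 5 of its probe sets were called. The inhibitor Birc3 was lower (-1.19 ± 0.23, adjusted p = 8.3e-04). Casp8 and Xiap rose by 0.65 and 0.52, with calls lost for Casp8 in 10 alternatives (each of the 6 arrays) and Xiap in 10 (each of the 6 arrays).

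**Figure D2:**
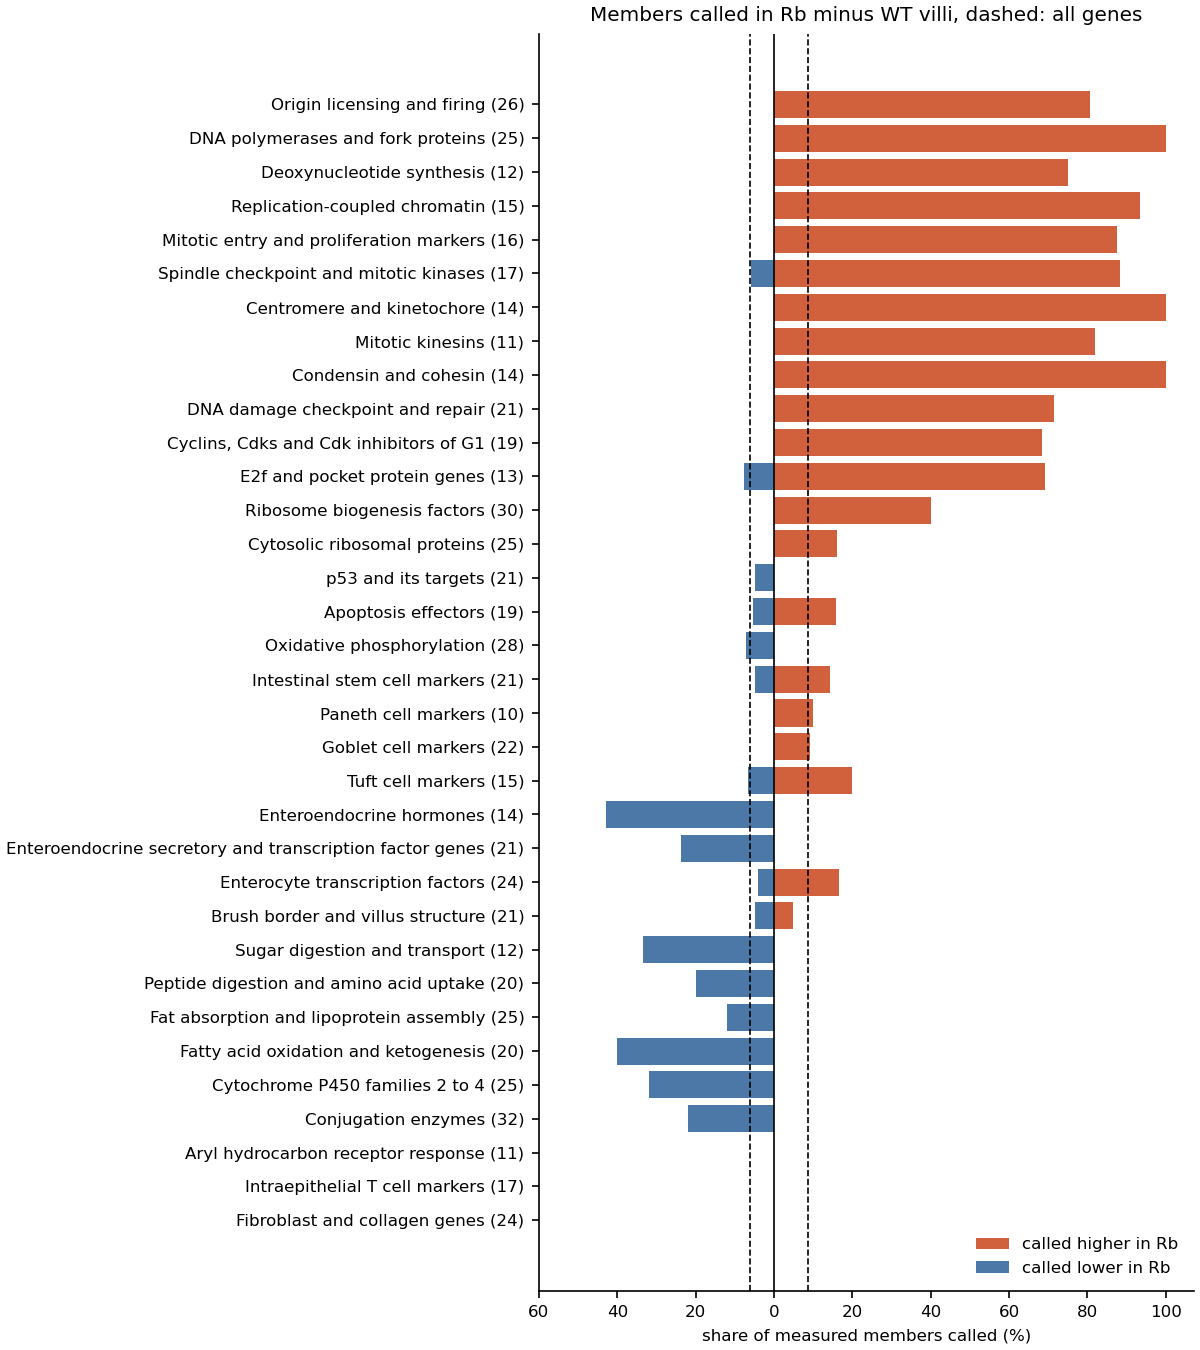
Share of the measured members of each list (number in brackets) called higher (right, orange) or lower (left, blue) in Rb villi, in percent. Dashed lines are the shares of all 18193 genes, 8.59% higher and 6.19% lower, and the lists of polymerases, kinetochore and condensin genes have all members higher while stem, Paneth and goblet cell lists stay near the lines.

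Genes of growth moved less. Of 30 ribosome biogenesis factors 12 were higher and 0 lower (median 0.61), among them the nucleolar genes Npm1 (0.91 ± 0.16, adjusted p = 2.7e-04), Dkc1 (0.99 ± 0.22, adjusted p = 0.0037), Nop56 (0.97 ± 0.22, adjusted p = 0.0046) and Nop58 (0.94 ± 0.22, adjusted p = 0.0043). Of 25 cytosolic ribosomal protein genes 4 were higher (median 0.33). Myc, a driver of both groups, read 7.60, 7.66 and 7.28 on the WT and 7.60, 7.80 and 8.14 on the Rb arrays, with overlap (0.33 ± 0.29, adjusted p = 0.5). In the Myc family Mycl (0.66 ± 0.22, adjusted p = 0.045) and Mga (0.73 ± 0.19, adjusted p = 0.011) rose and Mxd4, a Myc antagonist, fell (-0.65 ± 0.19, adjusted p = 0.025), with calls lost for Mycl in 10 alternatives (each of the 6 arrays), Mga in 5 (WT villi 3, Rb villi 1) and Mxd4 in 5 (WT villi 3, Rb villi 1 and 3). The ribosome biogenesis count was 1 with Rb villi 2 as the sole Rb array, where the median was 0.64. Tfrc, the transferrin receptor that takes up iron, rose by 1.11 ± 0.24 (adjusted p = 0.0027). The chaperone genes Hsp90aa1 (1.48 ± 0.14, adjusted p = 2.0e-07), Hspa8 (0.74 ± 0.14, adjusted p = 5.8e-04) and Hsph1 (1.55 ± 0.45, adjusted p = 0.022) were higher as well, and a call was lost for Hsph1 in 5 alternatives (WT villi 2 and 3, Rb villi 1). A linker histone moved against the replication genes: H1f2 was at 11.10, 11.15 and 11.39 in WT and at 8.97, 9.56 and 9.68 in Rb villi, a difference of -1.81 ± 0.27 (3.51-fold lower, adjusted p = 5.4e-05), and all 3 of its probe sets were called lower.

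The rise in cell cycle genes was set beside markers of the crypt. The mean of 21 stem cell markers was 7.21 to 7.34 on WT villus arrays and 7.42 to 7.54 on Rb villus arrays, beside 8.30 to 8.85 on the arrays labelled WT crypts. Lgr5, the marker of crypt base stem cells, read 5.05, 5.15 and 5.09 against 4.94, 5.16 and 4.73 (-0.15 ± 0.36, adjusted p = 0.83). Olfm4, which the same cells express, read 11.96, 12.35 and 11.80 against 12.54, 12.24 and 12.60 (0.42 ± 0.21, adjusted p = 0.19), and Smoc2 differed by 0.75 ± 0.33 (adjusted p = 0.14). Both Lgr5 and Olfm4 overlapped between the groups. Of the 21 markers Bmi1 (0.82 ± 0.13, adjusted p = 1.7e-04), Cdca7, which is also an S phase gene (1.19 ± 0.22, adjusted p = 7.1e-04), and the Wnt feedback gene Znrf3 (0.82 ± 0.24, adjusted p = 0.024) rose and Hopx fell (-0.75 ± 0.23, adjusted p = 0.032), with a median of -0.02. Some of these calls were lost, for Znrf3 in 6 alternatives (WT villi 1 and 3, Rb villi 1 and 3) and Hopx in 6 (WT villi 2 and 3, Rb villi 2).

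Paneth cells sit at the crypt base and do not normally enter the villus. The mean of 10 Paneth cell markers was 9.14 to 9.76 on WT and 9.30 to 9.79 on Rb villus arrays, against 10.85 to 11.24 on arrays labelled WT crypts. Lysozyme (Lyz1) differed by 0.07 ± 0.26 and Mmp7 by 0.35 ± 0.54, neither called, and the 1 Paneth gene called higher was the dim defensin Defa3 (0.56 ± 0.18, adjusted p = 0.039), with the call lost for Defa3 in 7 alternatives (WT villi 1 and 2, Rb villi 1, 2 and 3). The mean of the 72 mitosis genes was 6.62 to 6.84 on WT villus arrays, 8.27 to 8.43 on Rb villus arrays and 8.49 to 8.97 on WT crypt arrays. Replication genes had means of 7.32 to 7.48, 9.01 to 9.07 and 9.09 to 9.38. The means of Rb villi thus lay nearer to the crypt arrays than to WT villi in both lists, and nearer to WT villi in the stem cell and Paneth cell lists. Stem cell and Paneth markers were present in WT villi too, and the part of crypt tissue in the villus samples was not tested.

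**Figure D3:**
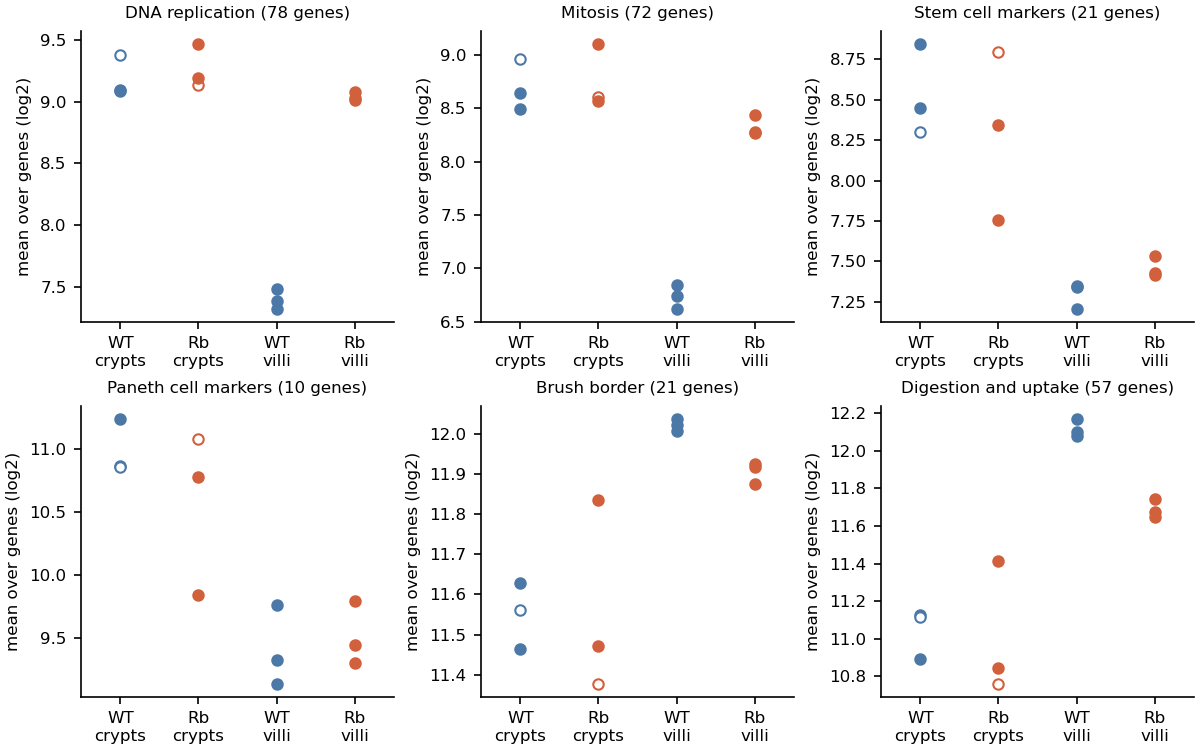
Mean log2 value over the genes of 6 lists (y axis, scales differ) on each array of WT crypts, Rb crypts, WT villi and Rb villi. Open circles are the 2 crypt arrays whose Rb1 level went against their label. Rb villi lie beside the crypts for replication and mitosis and beside WT villi for stem cell and Paneth cell markers.

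Genes of villus structure moved little. Of 21 brush border and villus structure genes 1 was higher and 1 lower (median -0.12), and their mean was 12.01 to 12.04 on WT and 11.88 to 11.93 on Rb arrays. Villin (Vil1), which bundles actin in microvilli, read 13.53, 13.58 and 13.32 against 13.31, 13.23 and 13.43, and keratin 20 (Krt20), a marker of mature villus cells, 13.85, 13.93 and 13.97 against 13.79, 13.90 and 13.72. The groups of both genes overlapped. Keratin 19 rose by 0.62 ± 0.11 (adjusted p = 2.9e-04), and harmonin (Ush1c), which links microvilli, was lower (-0.62 ± 0.12, adjusted p = 0.0011). Of 24 enterocyte transcription factors 4 rose and 1 fell (median 0.02). Elf3, an epithelial differentiation factor, rose by 0.87 ± 0.21, the bile acid receptor Nr1h4 by 0.69 ± 0.19, Tcf7l2 of Wnt signalling by 0.71 ± 0.20 and Klf5, a factor of the proliferating epithelium, by 0.60 ± 0.19, while Pparg, a regulator of lipid genes, differed by -0.74 ± 0.23 (called lower). Calls were lost for Klf5 in 12 alternatives (WT villi 1 and 3, Rb villi 1 and 3), Tcf7l2 in 8 (WT villi 2 and 3, Rb villi 1, 2 and 3), Pparg in 5 (WT villi 3, Rb villi 2 and 3), Nr1h4 in 4 (WT villi 2 and 3, Rb villi 3) and Elf3 in 2 (WT villi 3). Hnf4a differed by 0.08 ± 0.10 and Cdx2 by 0.32 ± 0.11, neither called.

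Genes that digest and absorb food were lower in part. Over sugar, peptide and fat lists 0 of 57 were higher and 11 lower, with a median of -0.41. The 11 include Pck1 and Fbp1, which belong to gluconeogenesis and not to digestion or uptake. Of these 57 differences 50 were below 0. Differences were mostly below 0 over all genes too, with 6762 of 18193 above it. Of 12 sugar genes 4 fell. Slc5a4a, a sodium-coupled transporter of the glucose transporter family, was at 10.98, 11.05 and 10.77 in WT and at 8.39, 8.63 and 9.34 in Rb villi, a difference of -2.14 ± 0.49 (4.42-fold lower, adjusted p = 0.0039). Its neighbour in the family Slc5a4b differed by -1.13 ± 0.37, and Pck1 and Fbp1, enzymes of gluconeogenesis, by -1.35 ± 0.39 and -0.98 ± 0.29, all called lower. Some of these calls were lost, for Slc5a4b in 10 alternatives (each of the 6 arrays), Fbp1 in 6 (WT villi 2 and 3, Rb villi 2 and 3) and Pck1 in 4 (WT villi 2 and 3, Rb villi 2), and that of Slc5a4a with Rb villi 2 as the sole Rb array. Glucose-6-phosphatase (G6pc) went the other way without passing the test (9.42, 9.31 and 9.40 in WT, 11.99, 9.80 and 10.81 in Rb, 1.49 ± 0.53, adjusted p = 0.065), and the Rb arrays of this gene were spread over more than 2 log2 units. Lactase (Lct) and the glucose exporter Slc2a2 differed by -0.43 ± 0.19 and -0.71 ± 0.35, not called.

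Of 20 genes of peptide digestion and amino acid uptake 4 fell. Ace, a peptidase of the brush border, was at 11.93, 12.11 and 11.82 in WT and at 9.79, 10.70 and 10.21 in Rb villi, a difference of -1.72 ± 0.29 (3.29-fold lower, adjusted p = 2.0e-04). Slc43a2, an exporter of large neutral amino acids, was at 12.54, 12.46 and 12.30 in WT and at 11.07, 11.06 and 11.34 in Rb villi, a difference of -1.28 ± 0.13 (2.42-fold lower, adjusted p = 7.3e-07). The amino acid transporter Slc7a8 (-0.92 ± 0.21, adjusted p = 0.0034) and Slc15a1, the di- and tripeptide transporter (-0.94 ± 0.29, adjusted p = 0.033), were also lower. Of 25 fat absorption genes 3 fell: the cholesterol transporters Npc1l1 (-0.74 ± 0.21, adjusted p = 0.018) and Abcg5 (-0.62 ± 0.19, adjusted p = 0.033), and Dgat1, which makes triglycerides (-0.38 ± 0.13, adjusted p = 0.044). Calls were lost for Dgat1 in 10 alternatives (each of the 6 arrays), Abcg5 in 9 (each of the 6 arrays), Npc1l1 in 5 (WT villi 1 and 2, Rb villi 1) and, among the peptide genes, Slc15a1 in 8 (WT villi 1, 2 and 3, Rb villi 1 and 2). The water channels Aqp1 and Aqp7 were 2.12-fold and 2.62-fold lower, with calls lost for Aqp7 in 5 alternatives (WT villi 3, Rb villi 2 and 3) and Aqp1 in 2. Another, Aqp8, was at 7.27, 7.32 and 7.67 in WT and at 5.84, 4.69 and 4.75 in Rb villi, a difference of -2.33 ± 0.59 (5.02-fold lower, adjusted p = 0.0094). Cubilin (Cubn), which takes up vitamin B12, read 12.84, 12.84 and 12.86 against 8.88, 10.71 and 10.45, a difference of -2.83 ± 1.05 that did not pass (adjusted p = 0.075). The Rb values of Cubn were scattered, with the lowest on Rb villi 1.

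In the list of mitochondrial and peroxisomal fatty acid oxidation all 20 differences were below 0 (over all genes 6762 of 18193 were above 0). Of these 20 genes 8 were called lower and 0 higher (median -0.48). Acaa1b, a peroxisomal thiolase, was at 11.50, 11.03 and 11.44 in WT and at 8.88, 9.06 and 8.40 in Rb villi, a difference of -2.54 ± 0.65 (5.82-fold lower, adjusted p = 0.0096). Its paralog Acaa1a differed by -0.71 ± 0.16, Ehhadh, also of the peroxisome, by -0.72 ± 0.17, and the mitochondrial genes Acads, Cpt2, Acadvl, Decr1 and Hadhb by -0.80 ± 0.15, -0.70 ± 0.14, -0.56 ± 0.15, -0.54 ± 0.11 and -0.42 ± 0.13. These 8 genes had no overlap between the groups, which held for 15 of the 20 in the list and for 41.9% of all genes. Calls were lost for Hadhb in 8 alternatives (WT villi 1, 2 and 3, Rb villi 2 and 3), Acadvl in 4 (WT villi 1, Rb villi 3) and Acaa1b in 2. Of 28 oxidative phosphorylation genes 0 were higher and 2 lower (median -0.16). Of their differences 26 were below 0, and 11 genes had an unadjusted p under 0.05 with limma. Probe sets of the paralogs Acaa1a and Acaa1b may read each other's transcripts, which was not tested.

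Enzymes that handle foreign compounds were lower in part. Of 25 cytochrome P450 genes of families 2 to 4, 8 were lower and 0 higher (median -0.36), among them Cyp2c38 (-1.30 ± 0.26, adjusted p = 0.0013), Cyp2c55 (-1.54 ± 0.37, adjusted p = 0.0061), Cyp3a25 (-0.79 ± 0.20, adjusted p = 0.008) and Cyp4f13 (-1.24 ± 0.34, adjusted p = 0.015). Of 32 conjugation enzymes 7 were lower (median -0.42), with the glutathione transferases Gsto1, Gstk1 and Gstm4 at -0.53 ± 0.10, -1.31 ± 0.30 and -1.37 ± 0.31 and the glucuronosyltransferase Ugt2a3 at -0.80 ± 0.21. Some of these calls were lost, for Ugt2a3 in 5 alternatives (WT villi 2 and 3, Rb villi 3), Cyp4f13 in 4 (WT villi 3, Rb villi 1), Cyp2c55 in 3 (Rb villi 3) and Cyp3a25 in 3 (Rb villi 3). Genes near-identical to each other in these families can share probes. The export pump Abcc2 was also lower (-1.43 ± 0.30, adjusted p = 0.002). Of 11 genes of the aryl hydrocarbon receptor response 0 were called by limma and 2 had an unadjusted p under 0.05 (median -0.31). Cyp1a1, the main target of that receptor, read 13.08, 10.87 and 11.09 on the WT and 11.27, 8.56 and 12.28 on the Rb arrays, with overlap and a range of more than 2 log2 units within each group. Detoxification counts over the P450, conjugation and receptor lists went from 15 lower to 4 with the sex covariate, and sex and genotype cannot be fully told apart here.

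**Figure D4:**
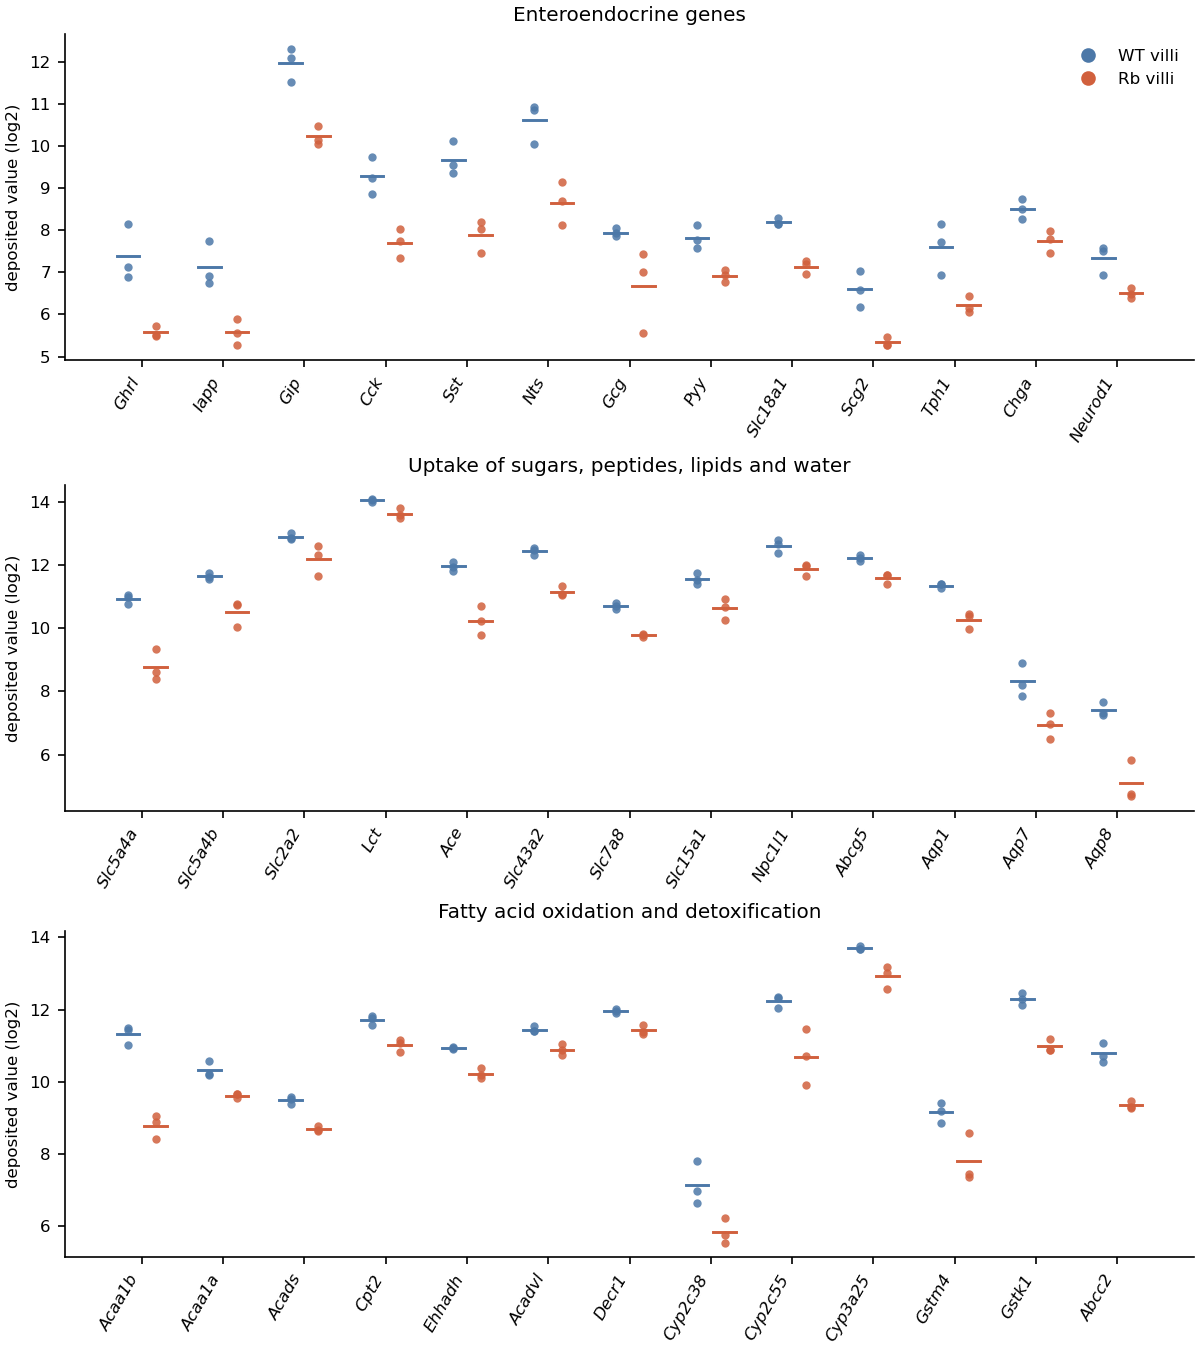
Deposited log2 values (y axis) of enteroendocrine genes, of transporters and digestive enzymes, and of fatty acid oxidation and detoxification genes. Each point is 1 array and each bar a group mean. Rb arrays lie below WT arrays for all genes shown, including Gcg, Pyy, Chga, Neurod1, Slc2a2 and Lct, which did not pass the test. The genes shown were picked, and G6pc, which went the other way, is not among them. Groups did not overlap, in either direction, in 23 of all 35 enteroendocrine and 35 of all 57 digestion and uptake genes. The same held for 15 of 20 fatty acid oxidation genes, 33 of 68 detoxification genes and 41.9% of all genes.

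Several transcripts of enteroendocrine cells, the scattered hormone cells of the epithelium, were lower in these bulk samples. Of 14 hormone genes 6 were lower and 0 higher (median -1.09), and of 21 secretory and transcription factor genes 5 were lower and 0 higher (median -0.44). Gip, the hormone of K cells, was at 11.54, 12.12 and 12.33 in WT and at 10.16, 10.49 and 10.06 in Rb villi, a difference of -1.76 ± 0.34 (3.39-fold lower, adjusted p = 8.8e-04). Ghrelin (Ghrl) was at 6.90, 7.14 and 8.16 in WT and at 5.72, 5.51 and 5.49 in Rb villi, a difference of -1.83 ± 0.35 (3.55-fold lower, adjusted p = 8.1e-04). Both genes were lower on each Rb array than on any WT array. The groups also lay apart for cholecystokinin (Cck, -1.58 ± 0.33, adjusted p = 0.0021), somatostatin (Sst, -1.79 ± 0.38, adjusted p = 0.0025), neurotensin (Nts, -1.96 ± 0.56, adjusted p = 0.02) and amylin (Iapp, -1.56 ± 0.29, adjusted p = 6.7e-04), and a call was lost for Nts in 6 alternatives (WT villi 2 and 3, Rb villi 1 and 3). Proglucagon (Gcg) and peptide YY (Pyy) did not pass the test (-1.27 ± 0.56, adjusted p = 0.14 and -0.91 ± 0.35, adjusted p = 0.084).

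Among the general genes of these cells, the monoamine transporter Slc18a1 differed by -1.06 ± 0.20, the granin Scg2 by -1.26 ± 0.26, the serotonin enzyme Tph1 by -1.40 ± 0.31, Scg5 by -1.78 ± 0.50 and Chgb by -0.91 ± 0.30, all called lower, with calls lost for Chgb in 11 alternatives (each of the 6 arrays) and Scg5 in 4 (WT villi 3, Rb villi 3). Chromogranin A (Chga) and the fate factor Neurod1 differed by -0.76 ± 0.36 and -0.85 ± 0.29 and were not called. Among the WT arrays, WT villi 3 was highest for Ghrl, Gip, Cck, Sst and Tph1. With the sex covariate 8 of 35 enteroendocrine genes were lower, and with Rb villi 2 as the sole Rb array 1 was, at a median of -0.57 beside -0.46 over all arrays.

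Other secretory lineages were read through goblet and tuft cell markers. Of 22 goblet cell markers 2 were higher and 0 lower (median 0.28). The mucin Muc2 read 13.08, 12.98 and 12.86 against 13.17, 13.44 and 13.30 (0.33 ± 0.19, adjusted p = 0.28), and the fate factor Atoh1 (0.52 ± 0.17, adjusted p = 0.042) and Sytl2 (0.58 ± 0.18, adjusted p = 0.034) rose. No other goblet gene was called, and these calls were lost for Atoh1 in 11 alternatives (each of the 6 arrays) and Sytl2 in 10 (each of the 6 arrays). Of 15 tuft cell markers, which label chemosensory cells, 3 rose and 1 fell (median 0.27). Rgs13 was at 6.32, 6.59 and 7.00 in WT and at 9.04, 8.49 and 8.79 in Rb villi, a difference of 2.14 ± 0.51 (4.39-fold higher, adjusted p = 0.0057). Siglecf was at 3.88, 4.30 and 4.80 in WT and at 6.54, 5.73 and 5.83 in Rb villi, a difference of 1.71 ± 0.30 (3.26-fold higher, adjusted p = 3.1e-04). Both were higher on all Rb arrays, Dclk1 rose on 1 of its 9 probe sets (0.87 ± 0.28, adjusted p = 0.039), and Ltc4s fell (-1.15 ± 0.32, adjusted p = 0.019), with calls lost for Dclk1 in 7 alternatives (WT villi 1 and 2, Rb villi 1 and 3) and Ltc4s in 4 (WT villi 3, Rb villi 3). In the Notch pathway, which opposes secretory fate, Hes1 (0.82 ± 0.18, adjusted p = 0.0025), Nrarp (0.80 ± 0.19, adjusted p = 0.0045) and Adam10 (0.52 ± 0.12, adjusted p = 0.0048) were 3 of 15 higher, with 0 lower (median 0.03).

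Few genes of signals between cells and of antimicrobial defence were called, beside 8.59% of all genes higher and 6.19% lower. The small counts below are not read as a trait of these lists. Of 16 genes of epithelial growth factor signalling 2 were higher and 2 lower (median 0.12), and of 19 genes of Hedgehog, Bmp and Tgfb signalling 2 were higher and 0 lower (median 0.03). Epiregulin (Ereg), an Egf receptor ligand, was at 6.10, 4.44 and 4.87 in WT and at 6.55, 6.79 and 7.76 in Rb villi, a difference of 1.90 ± 0.36 (3.72-fold higher, adjusted p = 7.6e-04), and Igf2 rose by 1.45 ± 0.32 (adjusted p = 0.0028). Errfi1, an inhibitor of the Egf receptor, and Hbegf, another of its ligands, were lower (-1.09 ± 0.30, adjusted p = 0.018 and -1.11 ± 0.31, adjusted p = 0.019). Id2 and Id3, targets of Bmp signalling, rose by 1.20 ± 0.28 and 0.75 ± 0.22. Calls were lost for Id3 in 6 alternatives (WT villi 1 and 2, Rb villi 2 and 3), Hbegf in 5 (WT villi 3, Rb villi 3), Errfi1 in 3 (WT villi 1, Rb villi 2) and Id2 in 2. Of 18 antimicrobial surface genes 2 were higher and 1 lower (median 0.06). Dmbt1 rose by 1.19 ± 0.15 and Lypd8 by 0.48 ± 0.14, and Reg4 differed by -1.16 ± 0.37 (called lower), with calls lost for Lypd8 in 8 alternatives (WT villi 1, 2 and 3, Rb villi 1 and 2) and Reg4 in 7 (WT villi 2 and 3, Rb villi 1, 2 and 3). Metallothionein Mt2 was at 8.55, 8.14 and 8.04 in WT and at 11.79, 8.95 and 11.67 in Rb villi, a difference of 2.56 ± 0.81 (5.9-fold higher, adjusted p = 0.035). Its high values were on Rb villi 1 and 3, the arrays with Y-linked signal, and Rb villi 2 stood near the WT arrays. That call was lost for Mt2 in 8 alternatives (WT villi 1, 2 and 3, Rb villi 1 and 3).

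Markers of cells other than epithelial cells were looked at because villus samples can hold them. Called genes were 0 of 17 markers of intraepithelial T cells, 0 of 24 fibroblast and collagen genes and 0 of 21 myeloid and mast cell markers. They were also 0 of 12 smooth muscle markers and 0 of 7 MHC class II genes. In this order the medians were -0.24, -0.28, -0.16, -0.04 and -0.62. At an unadjusted p under 0.05 with limma the numbers were 2, 2, 1, 2 and 0. Their means by array were 7.70 to 7.91 on WT and 7.39 to 7.66 on Rb arrays for T cell markers and 5.48 to 5.76 and 5.17 to 5.61 for fibroblast genes. Of 16 endothelial markers 1 was higher, Lyve1 of lymphatic vessels (0.93 ± 0.26, adjusted p = 0.017), and 1 lower, the receptor Kdr (-0.44 ± 0.14, adjusted p = 0.039), with a median of -0.20. The mean of these markers was 4.87 to 4.98 on WT and 4.73 to 4.82 on Rb arrays. Of 11 enteric neuron and glia markers 1 was lower, Snap25 (-0.75 ± 0.21, adjusted p = 0.019), with a median of -0.11 and means of 4.73 to 4.78 on WT and 4.55 to 4.57 on Rb arrays. The means of both lists were thus lower on every Rb array than on any WT array, at levels below the array median. The T cell means given above were likewise lower on every Rb array, at levels above the array median. Of 11 B and plasma cell markers 1 was lower, Tnfrsf17 (-0.37 ± 0.12, adjusted p = 0.047; median -0.07). Some of these calls were lost, for Tnfrsf17 in 10 alternatives (WT villi 1, 2 and 3, Rb villi 1 and 3), Kdr in 9 (WT villi 2 and 3, Rb villi 1, 2 and 3), Snap25 in 9 (WT villi 2 and 3, Rb villi 2 and 3) and Lyve1 in 5 (WT villi 3, Rb villi 2 and 3). Decorin (Dcn) read 7.43, 7.62 and 6.66 against 5.29, 6.20 and 6.47, lower on all Rb arrays without passing the test (adjusted p = 0.17). Collagen Col3a1 read 7.44, 7.07 and 7.07 against 5.58, 6.19 and 8.40, with the highest and the lowest value both on Rb arrays. The part of stromal RNA in the differences was not tested.

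Apart from genes already described, the largest falls were in genes of several kinds. Elobl, an elongin B-like gene, was at 7.26, 7.35 and 7.87 in WT and at 4.31, 4.96 and 4.01 in Rb villi, a difference of -3.07 ± 0.38 (8.39-fold lower, adjusted p = 5.8e-06). The serpin Serpina1c (-2.35 ± 0.47, adjusted p = 0.0014), the transcription factor Foxq1 (-2.34 ± 0.51, adjusted p = 0.0029) and Trdmt1, a tRNA methyltransferase (-2.15 ± 0.38, adjusted p = 3.7e-04), followed after Acaa1b. Slc6a20b, a transporter of proline and related amino acids, was at 7.61, 8.45 and 8.66 in WT and at 6.25, 6.59 and 5.61 in Rb villi, a difference of -2.09 ± 0.33 (4.25-fold lower, adjusted p = 1.2e-04). Rdh16f2, of a retinol dehydrogenase family, differed by -2.02 ± 0.43, alpha-fetoprotein (Afp), secreted by fetal liver and yolk sac, by -2.02 ± 0.45, Klf15, a metabolic regulator, by -1.98 ± 0.38 and Sccpdh by -1.96 ± 0.54. Genes were listed among the largest falls only where WT and Rb arrays did not overlap. A call was lost for Sccpdh in 4 alternatives (WT villi 2 and 3, Rb villi 3). The WT values of Serpina1c were 6.18, 6.23 and 7.82, so WT villi 3 stood above the other WT arrays. With Rb villi 2 as the sole Rb array 17 of the 24 largest changes were called, the 12 rises among them.

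The same contrast in crypts gave 0 called genes with limma (709 at an unadjusted p under 0.05), and 10 higher and 8 lower without the 2 arrays whose Rb1 level went against their label. Tested as a difference of differences, the Rb minus WT difference was more positive in villi than in crypts for 749 genes (4.12%) and more negative for 201 (1.1%), 5.22% in all, or 639 and 129 without those 2 arrays. With arrays centred on their medians the counts were 698 and 497, which lowers the share of positive differences from 78.8% to 58.4%. Replication genes had 62 of 78 positive and 0 negative (52 and 0 without the 2 arrays), and mitosis genes 57 of 72 and 0 (42 and 0). With Rb villi 2 as the sole Rb villus array these were 49 replication and 31 mitosis genes positive and 0 negative, at medians of 1.62 and 1.66 beside 1.58 and 1.70. Mki67 read 10.94, 11.22 and 11.75 on the arrays labelled WT crypts and 11.70, 11.20 and 11.50 on those labelled Rb crypts, and its difference of differences was 2.73 ± 0.41 (adjusted p = 2.7e-04). For Rrm2 these values were 10.04, 9.85 and 10.99 and 11.09, 9.98 and 10.99, with 3.43 ± 0.40 (adjusted p = 2.1e-05). Of 35 enteroendocrine genes 0 and of 20 fatty acid oxidation genes 0 differed between compartments by this test, with limma (9 and 8 at an unadjusted p under 0.05). In crypts the medians of these lists were -0.15 and -0.03 with 0 called (2 and 0 at an unadjusted p under 0.05), beside -0.46 and -0.48 in villi. With arrays centred on their medians 3 enteroendocrine and 1 fatty acid oxidation gene were more negative in villi, and after quantile normalization 2 and 0. Without the 2 crypt arrays whose Rb1 went against their label, the crypt medians were -0.54 and -0.13. Of these genes 1 enteroendocrine gene was then called lower in crypts (14 of 35 at an unadjusted p under 0.05 with limma). In that setting the crypt medians of replication and mitosis genes were 0.24 and 0.27, from 0.07 and 0.08. There 2 replication and 0 mitosis genes were called higher. At an unadjusted p under 0.05 with limma were 22 of 78 and 8 of 72, from 1 and 0.

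Villi labelled as also lacking E2f1, E2f2 and E2f3 were compared with the same loss of Rb, as QKO minus TKO. There the median difference was -0.22 over replication genes, with 0 higher and 5 lower, and -0.46 over mitosis genes, with 0 higher and 7 lower (of all genes 5.51% were higher and 1.17% lower, together 6.68%). Rrm2 read 9.84, 10.23 and 9.77 on TKO and 9.58, 9.53 and 9.33 on QKO villus arrays, a difference of -0.47 ± 0.28 (adjusted p = 0.37), where the TKO values themselves were above the WT values of 7.15 to 7.56. Mki67 read 8.69, 9.20 and 8.40 and 7.64, 8.35 and 8.20. The TKO means of both lists were above the WT means as well. Such levels are compared across sets of arrays that differ in their spiked control transcripts, as given below. Replication genes had means of 8.29 to 8.70 on TKO and 8.31 to 8.42 on QKO villus arrays, and mitosis genes of 7.46 to 7.88 and 7.07 to 7.41, all above the WT villus means of 7.32 to 7.48 and 6.62 to 6.84 and below the Rb villus means. The difference of differences was positive for 66 of 78 replication genes and 67 of 72 mitosis genes, with 0 negative in both, at medians of 1.86 and 2.20. Rb1 itself differed by -1.82 ± 0.41 (adjusted p = 0.01) in QKO minus TKO. The means of E2f1, E2f2 and E2f3 were 6.65, 7.55 and 7.94 on WT villus arrays. They were 6.99, 7.91 and 8.09 on TKO and 6.88, 7.28 and 7.85 on QKO villus arrays. The probe sets used thus do not show the loss of these 3 genes that the labels give. Which part of the transcripts they read was not examined.

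Enteroendocrine genes differed in sign between the comparisons. In QKO minus TKO 19 of 35 were higher and 0 lower (median 1.26), and the difference of differences was negative for 21 and positive for 0 (median -1.61). Gip read 12.43, 11.94 and 11.38 on TKO and 13.77, 13.13 and 13.55 on QKO arrays, Ghrl 7.89, 6.73 and 7.11 and 9.99, 8.72 and 9.37, and Tph1 7.65, 6.58 and 6.60 and 10.34, 9.74 and 10.49. All 3 genes were thus higher on each QKO array than on each TKO array, and their differences of differences were -3.33 ± 0.48 (adjusted p = 5.8e-05), -3.94 ± 0.49 (adjusted p = 1.1e-05) and -4.65 ± 0.44 (adjusted p = 9.5e-07). Markers of other cells moved in the same direction in part. In QKO minus TKO, 7 of 24 fibroblast and collagen genes (median 0.95), 3 of 17 T cell markers (1.0), 7 of 15 tuft cell markers (0.52) and 5 of 21 myeloid and mast cell markers (0.27) were higher and 0 lower. Their differences of differences were negative for 7, 4, 4 and 3 genes and positive for 0, at medians of -1.20, -1.24, -0.36 and -0.54. The part of these cells in the enteroendocrine difference was not tested. For fatty acid oxidation the QKO minus TKO median was 0.04, with 7 of 20 differences of differences negative. In all, 1187 genes (6.52%) were positive and 1621 (8.91%) negative in this test, together 15.4%, and 1492 and 1361 after quantile normalization. The spiked poly-A control transcripts read 5.35 to 6.25 on WT and Rb villus arrays and 8.96 to 10.06 on TKO and QKO villus arrays. Each subtraction stays within one of these sets of arrays, but an effect that depends on the set cannot be told apart from one of E2f1 to E2f3. Levels of TKO or QKO villi set beside those of WT or Rb villi cross the sets, so a difference between sets can enter them. Y-linked signal was on all 3 QKO and on 2 of 3 TKO villus arrays.

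**Figure D5:**
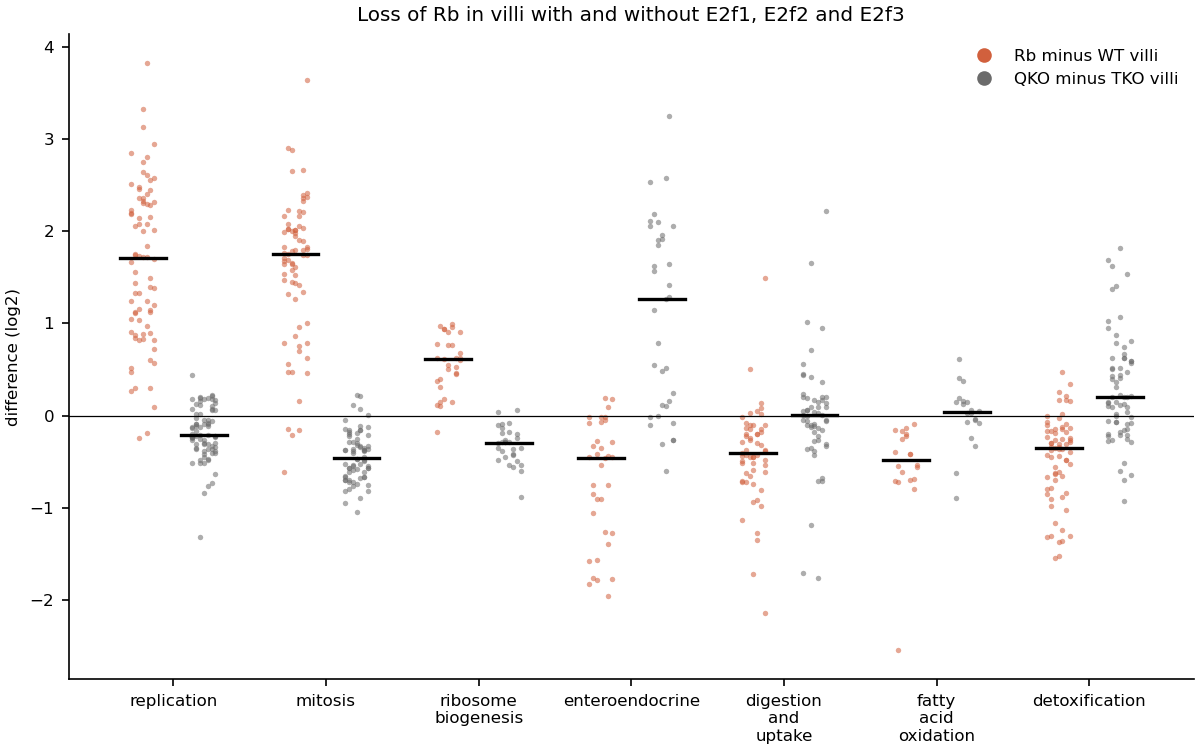
Log2 differences (y axis) of the genes of 7 groups for Rb minus WT villi (orange) and QKO minus TKO villi (grey). Each point is 1 gene and each black bar the group's median. Replication and mitosis genes have medians of 1.71 and 1.75 in Rb villi and of -0.22 and -0.46 in QKO, and enteroendocrine genes of -0.46 and 1.26.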

How the data were processed

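The authors deposited 1 log2 value per probe set and array, on Affymetrix mouse arrays hybridized with biotin-labelled cRNA from 3 µg of total RNA per the labels' protocols. The sources used here do not give how intensities were summarised and scaled, and the log2 base was inferred from the range of the values. Of 45101 probe sets, 34945 map to 1 gene in the platform annotation, 932 to several, 9160 to none and 64 are controls. For 34741 of those with 1 gene the symbol was updated through its Entrez identifier and for 204 the platform's was kept.

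Where a gene had several probe sets, the brightest on average over all 24 arrays stood for it. limma 3.58.1 in R 4.3.3 (lmFit, then eBayes with an intensity trend) was fitted to all 24 arrays with a mean per group (16 residual degrees of freedom) and Benjamini-Hochberg adjustment over 18193 genes. It was tested on simulated data with Rb minus WT in villi changed in 200 genes, of which 29.9%, 83.6% and 97% were called at changes of 0.5, 1 and 2 (67, 67 and 66 genes). The number of arrays limits the precision.

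Named genes are Rb1 and E2f1 to E2f8, the 12 largest called rises and 12 largest called falls, without overlap and with a group mean over 6.39 in the brighter group (6.39 is the overall median). Up to 4 called members with the smallest p per list described were added, along with uncalled members that define a cell type or pathway, and for both differences of differences the 3 largest rises and falls. Predicted genes, Riken clones and unnamed loci were left out. Further members were chosen after their values were seen. The members and lists were chosen with earlier results of these data known. Alternatives were quantile normalization, median centring, no trend, no dim genes, averaged probe sets, all probe sets tested singly, fewer groups, array weights, a replicate block, a sex covariate and leaving out arrays. Leaving out Rb villi 1 and 3 was added after seeing the data.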

Additional observations from a re-analysis of the deposited data

Results flagged for a closer look

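The effect of Rb loss in villi was tested against that in crypts and against QKO minus TKO, with limma, and the following differed. Against crypts 749 genes were positive and 201 negative. The 3 largest positive differences were Zfp367 (3.61 ± 0.52, adjusted p = 1.7e-04), the membrane mucin Muc4 (3.60 ± 0.83, adjusted p = 0.012) and Rrm2 (3.43 ± 0.40, adjusted p = 2.1e-05). The 3 largest negative ones were Elobl (-2.88 ± 0.53, adjusted p = 0.0019), apolipoprotein Apoa2 (-2.17 ± 0.40, adjusted p = 0.0019) and Slc6a20b (-1.89 ± 0.47, adjusted p = 0.019). Muc4 read 4.16, 6.66 and 6.58 on WT villi, 8.44, 7.66 and 7.64 on Rb villi, 7.40, 8.12 and 7.83 on WT crypts and 7.22, 4.61 and 7.06 on Rb crypts, so 1 low value in each of WT villi and Rb crypts enters its difference, the latter on an array whose Rb1 level went against its label.

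Against QKO minus TKO 1187 genes were positive and 1621 negative. The largest positive differences were St3gal4 (10.49 ± 2.03, adjusted p = 0.0012), Gsdmc2 (5.44 ± 1.10, adjusted p = 0.0018) and Rrm2 (4.29 ± 0.40, adjusted p = 7.0e-07), and the largest negative ones Serpina1c (-5.33 ± 0.67, adjusted p = 1.1e-05), Ambp (-5.01 ± 0.51, adjusted p = 1.7e-06) and Tph1 (-4.65 ± 0.44, adjusted p = 9.5e-07). St3gal4, a sialyltransferase gene, took 1 of 2 levels on every array shown. It read 12.50, 5.78 and 12.57 on WT villi, 13.67, 13.23 and 13.07 on Rb villi, 12.33, 12.76 and 12.84 on TKO villi and 4.71, 5.22 and 5.65 on QKO villi, and 12.77, 5.41 and 6.53 on WT crypts and 13.12, 12.52 and 13.46 on Rb crypts. The low level was found on both WT arrays numbered 2 and on the array labelled WT crypts 3, as well as on all QKO villus arrays.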

How the results depend on the processing

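Counts of replication and mitosis genes higher in Rb villi stayed within 1.5 times of 69 and 66 under every alternative run. Of 179 called genes tracked, 178 kept their call with the 6 arrays alone, 131 with the sex covariate, 134 to 152 when 1 villus array was left out (fewest without WT villi 3) and 81 without Rb villi 1 and 3. That last alternative left 721 genes higher and 171 lower, 1 ribosome biogenesis gene higher, and 1 enteroendocrine, 2 digestion, 2 fatty acid oxidation and 3 detoxification genes lower. It left 290 positive and 21 negative differences against crypts (31 mitosis genes positive, from 57), and 717 and 598 against QKO minus TKO. The sex covariate left 578 genes lower, 6 of them in digestion and 4 in detoxification, and 66 negative differences against crypts. The 6 arrays alone gave 2085 lower genes, 22 ribosome biogenesis genes higher, and 18 enteroendocrine, 29 digestion and 25 detoxification genes lower, and the 12 villus arrays 18 digestion genes. Array weights gave 2417 higher and 2692 lower, with 22 ribosome biogenesis, 17 enteroendocrine, 23 digestion and 14 fatty acid oxidation genes. Replicate numbers did not pair the arrays (r of deviations -0.20, 0.00 and -0.23), and the replicate block gave 1743 higher and 1431 lower, 18 enteroendocrine and 26 digestion genes.

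Leaving out 1 array gave 620 to 895 lower genes (620 without WT villi 3 and also without Rb villi 3), 5 to 12 ribosome biogenesis, 4 to 7 digestion and 6 to 13 detoxification genes, and 78 to 160 negative differences against crypts. The latter were 497 after median centring and 129 without the 2 crypt arrays whose Rb1 went against their labels. In windows of 250 bases the shares among genes called higher were 9.05% for E2f, 15.8% for CHR and 47.2% for CCAAT, and CHR was in 20 of 60 mitosis genes (from 35) and E2f in 15 of 66 replication genes (from 24). Signs turned in uncalled genes and on the second Rb1 probe set (0.45). E2f4 was at -0.0755 after quantile normalization, -0.0106 with the sex covariate and -0.0121 to 0.1323 leaving out 1 array (lowest without Rb villi 2). Foxm1 was at 0.10 and Mdm2 at 0.053 as means of probe sets. Col3a1 was at 0.0058 with the sex covariate and -1.3083 to 0.1014 leaving out 1 array (highest without Rb villi 1). Leaving out 1 array, Cyp1a1 was at -1.7655 to 0.0918 (highest without Rb villi 2) and Lyz1 at -0.0362 to 0.1505 (lowest without Rb villi 3). Without Rb villi 1 and 3, Lyz1 was at -0.0195 and Lgr5 at 0.0638. The cause was not tested.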

Other observations

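The transcript of the Gt(ROSA)26Sor locus, chosen after its values were seen, read 2.84, 2.91 and 3.32 on WT villi and 4.36, 4.84 and 8.50 on Rb villi (2.88 ± 0.93, adjusted p = 0.04 with limma), with Rb villi 3 far above the other Rb arrays. It read 8.28, 8.18 and 8.61 on TKO and 8.08, 7.79 and 7.12 on QKO villi. The call was lost in 6 alternatives, among them leaving out any 1 WT villus array or Rb villi 3 and the sex covariate. Of 9010 genes with several probe sets, 14 had called probe sets of opposite sign in Rb minus WT villi.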
